A study of Homo sapiens with 4 samples.

Results

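The intraflagellar transport genes examined here are the 10 rows whose symbol in the deposited gene tables is IFT27, HSPB11, IFT20, IFT46, IFT52, IFT57, IFT74, IFT80, IFT81 or IFT88, out of 44591 genes. They were chosen by the measured difference of IFT27, about 2-fold higher in libraries labelled as given siRNA against LINC01186, a long noncoding RNA also named SALIS, and the question is whether its complex partners moved with it. The values of IFT27 in this comparison chose the set and are therefore given as a description with no test. Cells labelled HepG2, an established line from a human liver tumour, received a control siRNA (siNC) or siRNA against LINC01186 (siLINC01186), and were kept without serum for 6 h and then with 10% serum for 24 h. Poly(A) RNA of 2 libraries per group was sequenced, and the study describes both repeats as having the same siNC and different siLINC01186 oligos, which the labels do not assign to libraries.

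Intraflagellar transport moves cargo along the microtubules of the primary cilium, an antenna-like projection that many cells use to receive signals such as Hedgehog. The anterograde trains are built from the IFT-B complex, which kinesin-2 pulls to the tip, and the return journey uses the IFT-A complex and dynein-2. IFT27 is a small Rab-like GTPase that sits on IFT-B as a heterodimer with HSPB11 (also named IFT25), and it is known for the removal of BBSome and Hedgehog components from cilia. In the liver, bile duct cells carry primary cilia and hepatocytes generally do not.

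The cell line and the knockdown were checked first, and both limit what follows. ALB counts were 0 (replicate 1) and 15 (replicate 2) under siNC, and 0 and 14 under siLINC01186. Over ALB, AFP, APOA1, APOB, TTR, SERPINA1 and FGB, secreted proteins that mark liver cell lines, the highest count was 2 and 27 under siNC and 4 and 20 under siLINC01186, out of 14968958 to 17297245 counts per library. HNF4A, a liver transcription factor, had 79 to 188 counts. The defining secreted markers of the label HepG2 were thus at or near 0 in all 4 libraries, and were higher in replicate 2 than in replicate 1 in both groups. The paper reports a short tandem repeat profile of its HepG2 cells that fully matched a HepG2 reference line. Whether the profiled cells were the stock sequenced here is not stated. The summed level of 8 liver markers, mostly HNF4A, was 4.74 and 15.8 CPM under siNC and 5.95 and 15.6 CPM under siLINC01186. That of 5 markers of other cell types, PTPRC, COL1A2, PECAM1, CDH5 and ACTA2, was 12.0 and 14.5 against 12.0 and 18.3 CPM. COL1A2, with 105 to 135 counts, and ACTA2, with 37 to 153, carried most of the latter. CDH5 had 13 to 37 counts, and PTPRC and PECAM1 had 0 to 7. Few genes carried each sum, so the sums do not weigh cell types against each other. LINC01186 itself was counted 15 and 14 times under siNC and 12 and 14 times under siLINC01186. By edgeR's quasi-likelihood test its log2 fold change was -0.12 ± 0.53 (SE) at an unadjusted p of 0.831. A fall of the target was not detectable at this depth, so every direction below is between libraries as labelled. Among 4 libraries the first principal component, with 62.4% of the variance, separated replicate 1 from replicate 2, so differences within each replicate number are given beside the pooled ones.

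The stretch before the start of IFT27 is shown because IFT27 is the member that chose the set, with 2 short motifs in capitals. It is the 250 bases upstream of the RefSeq start, on the minus strand of GRCh38.p14 at chr22:36776120-36776369.
IFT27: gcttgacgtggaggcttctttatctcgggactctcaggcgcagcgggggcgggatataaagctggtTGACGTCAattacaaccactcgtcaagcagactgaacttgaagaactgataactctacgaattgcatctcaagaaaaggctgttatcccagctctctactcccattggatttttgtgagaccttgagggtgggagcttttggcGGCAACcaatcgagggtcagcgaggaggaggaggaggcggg

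The capitals mark TGACGTCA, a palindrome known as the cyclic AMP response element, and GGCAAC, the reverse complement of GTTGCC. The latter is the half-site of the X-box, the element that RFX factors bind in many ciliary promoters. Both were read in RefSeq windows of 250 bases before to 50 bases after each start, on both strands, and both were picked after the members' values were known. GTTGCC was present in 12.2% of 35097 such windows and in at least 1 window of 14.6% of 27305 genes. All 10 members matched a window, HSPB11 under its current symbol, and 6 of them held the half-site: IFT27, HSPB11, IFT46, IFT74, IFT81 and IFT88. Upstream matches of 3 partners, including both of IFT74, are shown with their surroundings, for comparison with that of IFT27, and the half-site is in capitals.
HSPB11, chr1:53946383-53946412, minus strand: gagggggctgggGGCAACcaggcgccgtgg
IFT46, chr11:118566110-118566139, minus strand: tttatcagccgcGTTGCCacccatagccgc
IFT74, chr9:26946861-26946890, plus strand: caacacagccggGGCAACccgactcccagc
IFT74, chr9:26956372-26956401, plus strand: tatcccgcccccGTTGCCgggatacgccgc
The full X-box consensus of both half-sites, with up to 3 bases between them, was matched by 1 member, IFT57, and by 1.31% of all windows. At least 1 window of 1.61% of genes matched it. TGACGTCA was present in 1.85% of windows, in at least 1 window of 2.25% of genes, and in windows of IFT27, IFT20 and IFT57. These matches describe the letters in the windows and were not read as bound sites.

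Per length and library (TPM, the count divided by gene length and scaled to a common total), HSPB11 had the highest level of the 10 genes in siNC, 39.6 ± 4.92 TPM (SD, n = 2). IFT20, the subunit that also resides at the Golgi, followed at 25.4 ± 4.99 TPM, and its values of 21.9 and 28.9 TPM lay below both values of HSPB11. IFT81, IFT52 and IFT80 came next at 12.3 ± 1.65, 11.2 ± 0.0540 and 10.7 ± 2.55 TPM, and their siNC values overlapped, so their order was not resolved. IFT27 was the sixth at 8.55 ± 0.695 TPM, and its values overlapped those of the neighbours on either side, IFT80 and IFT46. IFT46, a core subunit, was at 8.22 ± 0.586 TPM, and IFT57, a peripheral subunit, at 7.06 ± 0.311 TPM. IFT88, the core subunit whose loss gives mice without normal cilia, was at 3.22 ± 0.525 TPM. IFT74 stood lowest at 0.762 ± 0.176 TPM, below both values of every other member, although its known heterodimer partner IFT81 was the third. In the 2 siLINC01186 libraries IFT27 was the third of the 10 genes, and HSPB11 and IFT20 stayed first and second.

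IFT27 lies on the minus strand of chromosome 22 from 37154246 to 37172177 in the deposited tables, whose notes name the hg19 build. Its counts were 88 (replicate 1) and 94 (replicate 2) under siNC, and 130 and 260 under siLINC01186. In CPM, the count scaled by the TMM-adjusted library size, these were 5.25 and 5.82 against 9.10 and 14.6. Both siLINC01186 values lay above both siNC values, and the replicate 2 library was the higher. The group levels were 5.54 ± 0.402 CPM (SD, n = 2) and 11.9 ± 3.91 CPM (SD, n = 2), a fitted log2 fold change of 1.10 ± 0.31 (SE). Within replicate 1 IFT27 differed by 0.78 and within replicate 2 by 1.31 on the log2 CPM scale. Without siLINC01186 replicate 2 the log2 fold change was 0.71. With 4 bulk libraries, more cells with the transcript and more transcript per cell cannot be told apart.

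**Figure D1:**
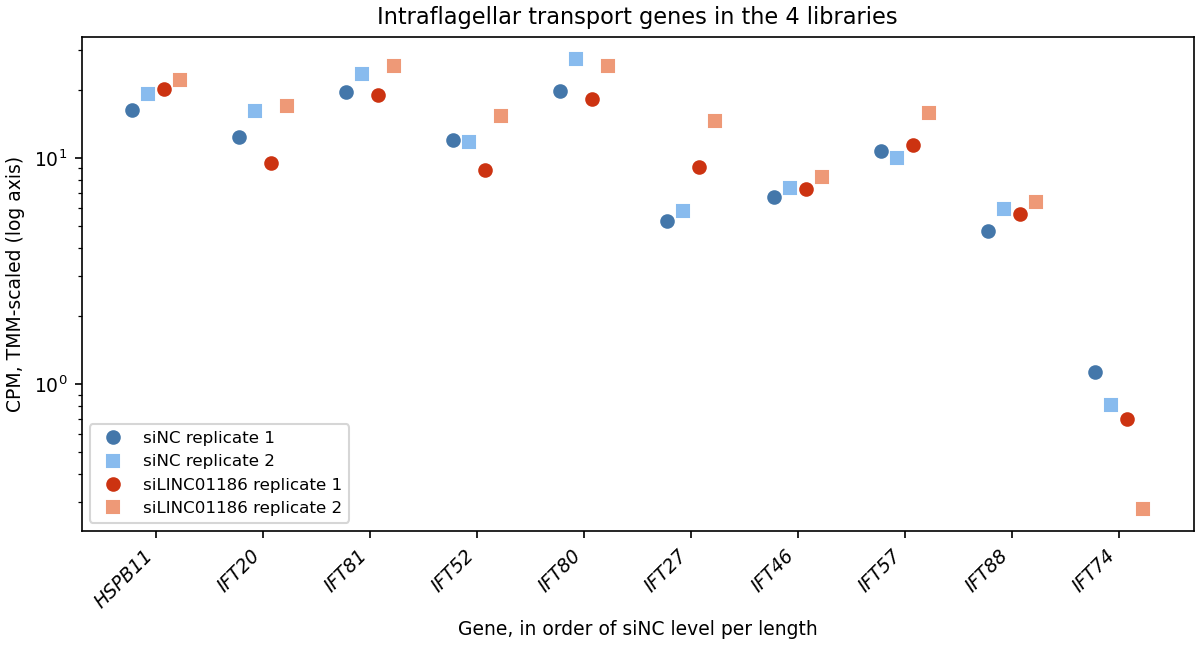
CPM of the 10 genes on a log axis, one point per library, with siNC in blue, siLINC01186 in red, circles for replicate 1 and squares for replicate 2. IFT27 has both red points above both blue points, with the replicate 2 square highest at 14.6 CPM, and IFT74 lies lowest in all libraries.

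At the limits of the study, a log2 fold change beyond 1 with an unadjusted p under 0.05, 111 of 23942 tested genes were higher in siLINC01186, which is 0.464%, and 70 were lower, which is 0.292%. Of the members IFT27 passed in the higher direction, by the choice of the set, and 0 passed in the lower. None of the 9 partners passed, and none had an unadjusted p under 0.05 from edgeR's quasi-likelihood test, which 1.21% of all tested genes had. After Benjamini-Hochberg adjustment over all genes 0 genes of the table had an adjusted p under 0.05, against 289 at an unadjusted p under 0.05. With DESeq2's Wald test these were 1 and 92 genes. The median log2 fold change of the 9 partners was 0.05, against 0.00 over all genes tested. IFT27 lay just beyond the fold limit at 1.10, and the next highest member, short of it, was IFT57 at 0.40. On the lower side IFT74, at -1.01, was beyond the fold limit but not under the p limit.

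HSPB11, the direct partner of IFT27, was counted 273 and 310 times under siNC and 289 and 394 times under siLINC01186. These were 16.3 and 19.2 CPM against 20.2 and 22.2 CPM, so both siLINC01186 values lay above both siNC values. The log2 fold change was 0.26 ± 0.21 (SE, unadjusted p = 0.261, edgeR's quasi-likelihood test). Its 95% interval, -0.23 to 0.74, holds 0 and does not reach a 2-fold change. The ratio of IFT27 to HSPB11 per length within a library needs no scaling between libraries. It was 0.223 and 0.210 under siNC, and 0.311 and 0.457 under siLINC01186. The share of IFT27 in the summed level of 17 IFT-B genes was 4.79% and 4.62% in siNC and 7.85% and 9.74% in siLINC01186. Both the ratio and the share hold the IFT27 values that chose the set, so their rise is a description and not a test.

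**Figure D2:**
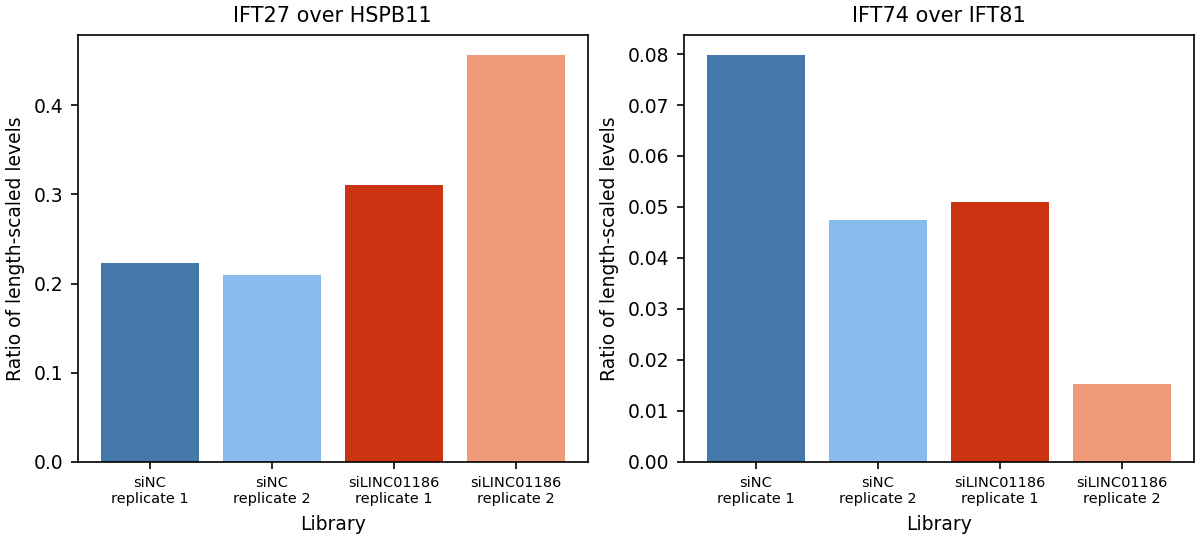
Ratio of length-scaled levels within each library for IFT27 over HSPB11 and for IFT74 over IFT81, the known heterodimer pairs, one bar per library from 0. The first ratio is higher in both siLINC01186 libraries, up to 0.457, and the second is lowest in siLINC01186 replicate 2, at 0.0152. The first ratio holds the IFT27 values that chose the set, so its rise is a description and not a test.

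IFT74 and IFT81 form the tubulin-binding part of IFT-B. IFT81 had 330 and 380 counts in siNC and 272 and 455 in siLINC01186, which were 19.7 and 23.5 CPM against 19.0 and 25.6 CPM. Its groups overlapped, and the log2 fold change was 0.05 with a 95% interval of -0.48 to 0.57. IFT74 had 19 and 13 counts in siNC and 10 and 5 in siLINC01186, or 1.13 and 0.805 CPM against 0.700 and 0.281 CPM. Both siLINC01186 libraries were lower than both siNC libraries. The log2 fold change of IFT74 was -1.01 ± 0.65 (SE, unadjusted p = 0.156, edgeR's quasi-likelihood test), and its interval of -2.48 to 0.47 was the widest of the members. With so few counts, a change of IFT74 was not detectable at this depth. The ratio of IFT74 to IFT81 was 0.0798 and 0.0474 in siNC and 0.0510 and 0.0152 in siLINC01186, so the groups overlapped.

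The other core subunits IFT46, IFT52 and IFT88 showed no separation of the groups. IFT46 had 6.75 and 7.37 CPM in siNC and 7.28 and 8.27 CPM in siLINC01186, a log2 fold change of 0.14 (95% interval -0.48 to 0.76). IFT88 had 4.78 and 5.95 CPM against 5.67 and 6.41 CPM, a log2 fold change of 0.17 (interval -0.52 to 0.87). IFT52, a scaffold of the core, had close siNC values of 12.1 and 11.8 CPM, with 8.82 CPM in siLINC01186 replicate 1 and 15.4 CPM in replicate 2. It was thus lower within replicate 1, by -0.45, and higher within replicate 2, by 0.37 on the log2 scale. The pooled log2 fold change of IFT52 was 0.02 (interval -0.66 to 0.70).

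Among the peripheral subunits, IFT57 had 10.7 and 9.97 CPM in siNC and 11.4 and 15.8 CPM in siLINC01186, without overlap. Its log2 fold change was 0.40 ± 0.26 (SE, unadjusted p = 0.164, edgeR's quasi-likelihood test), with 0.09 within replicate 1 and 0.66 within replicate 2. IFT20 had 12.4 and 16.2 CPM against 9.52 and 16.9 CPM, a log2 fold change of -0.11 (95% interval -0.81 to 0.59). It was lower within replicate 1 and nearly level within replicate 2. IFT80, known from a skeletal ciliopathy, had 19.8 and 27.4 CPM against 18.2 and 25.4 CPM, a log2 fold change of -0.11 (interval -0.69 to 0.47).

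For 8 of the 9 partners, all but IFT74, the 95% interval lay inside a log2 fold change of -1 to 1, as it did for 47.6% of all tested genes. Both siLINC01186 libraries lay above both siNC libraries for HSPB11 and IFT57, 2 of the 9, and such separation held for 13.6% of all tested genes. Below both siNC libraries lay 1 of the 9, IFT74, against 12.4% of all tested genes. Within both replicate numbers 4 partners were higher (HSPB11, IFT46, IFT57 and IFT88) and 2 were lower (IFT74 and IFT80), where 27.2% and 26.6% of all tested genes were. The replicate number also moved with the levels. In siNC 7 of the 10 genes, and in siLINC01186 9 of the 10, were higher in replicate 2 than in replicate 1 on the log2 CPM scale, where 51.8% and 50.8% of all tested genes were. The liver markers moved the same way, and their part in these values was not tested.

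**Figure D3:**
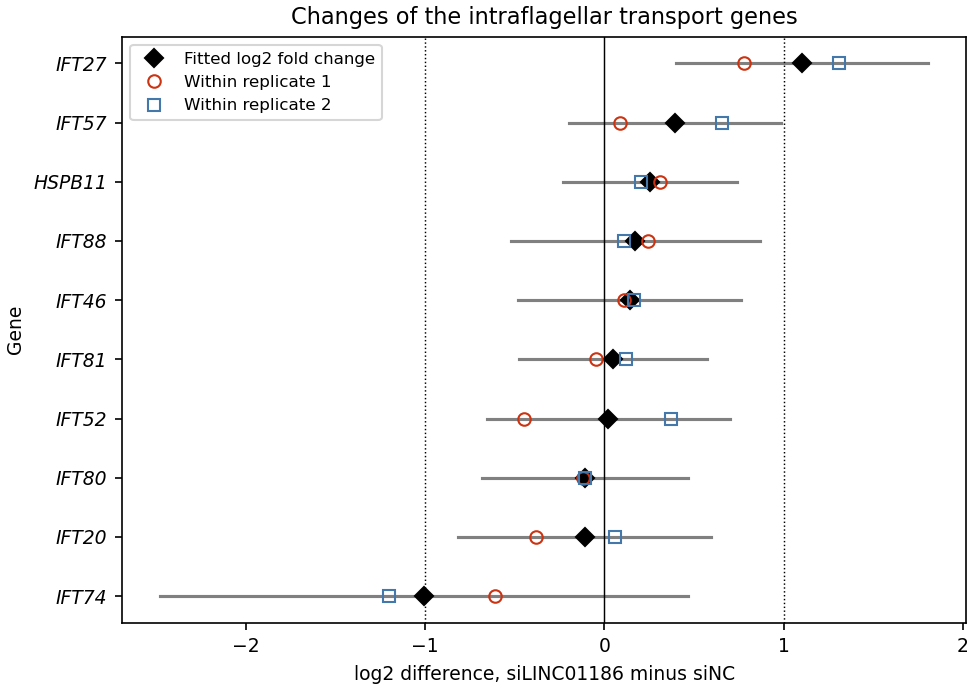
Log2 difference of siLINC01186 minus siNC for each gene, with the fitted log2 fold change as a diamond, its 95% interval as a line, and the differences within replicate 1 (circle) and replicate 2 (square). The diamond of IFT27 lies at 1.10 and those of 8 partners between -0.11 and 0.40, while IFT74 has the widest interval and lies at -1.01.

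The libraries were made with a kit that does not mark strand, and reads from genes that overlap on opposite strands cannot be told apart. In the hg19 positions of the tables IFT27 is overlapped by LOC105373021, a long noncoding RNA gene on the other strand. Its counts were 5 and 3 in siNC replicates 1 and 2, and 2 and 6 in siLINC01186 replicates 1 and 2. The part of such reads in the IFT27 counts was not tested. PVALB, a calcium-binding protein gene within 50 kb, had 0 counts in all 4 libraries. In the GENCODE release 29 annotation of GRCh38, the exons of IFT27 share 0 of 8009 bases with other genes. Exons of IFT20 share 11.2% of their bases with TMEM97, those of IFT74 share 6.68% with PLAA, and those of IFT80 share 35.7% with SMC4 and AC079594.2. By exon overlap in that annotation, the values of IFT20, IFT74 and IFT80 are therefore less certain than those of the other members. In the hg19 positions IFT46 is also overlapped on the other strand by TMEM25, with 17 to 37 counts, and RPL5P30, with 3 to 7. IFT88 is overlapped on its own strand by the pseudogene SLC35E1P1, with 9 to 17 counts. IFT74-AS1 and LRRC19 over IFT74, and TRNAN-GUU over HSPB11, had 0 to 2 counts. The part of such reads in the members' counts was not tested.

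The 7 other IFT-B genes of a list of 17 were read in the same fit. Of these 0 passed the limits in either direction and 0 had an unadjusted p under 0.05. Over all tested genes 0.464% passed as higher, 0.292% passed as lower and 1.21% had such a p. At these shares 0 calls in a list of this size is not a result about the list. The median log2 fold change of the 7 genes was 0.14. IFT22, the other Rab-like GTPase of the complex, had 17.5 and 22.7 CPM in siNC and 22.8 and 27.6 CPM in siLINC01186, without overlap. Its log2 fold change was 0.33 (unadjusted p = 0.180, edgeR's quasi-likelihood test). TTC30A was the highest of the 7 at 0.53, and its reads can be split with its near-identical copy TTC30B, which was at 0.14. TRAF3IP1, a peripheral subunit that binds microtubules, was the lowest at -0.25. None of these differences passed the test without a block. With the replicate number as a block, IFT22 and TTC30A had an unadjusted p of 0.0256 and 0.0317. Their adjusted p was 0.469 and 0.512, by edgeR's quasi-likelihood test.

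The partner machines were read in the same way, against 0.464% of all tested genes past the limits as higher and 0.292% as lower. In lists this short 0 past the limits is near those shares and is not a result about the lists. Of the 7 IFT-A genes 0 passed the limits in either direction, and their log2 fold changes ran from -0.30 for WDR19 to 0.44 for IFT43. Of 9 motor genes 0 passed, from -0.34 for KIF3A, a kinesin-2 motor subunit, to 0.43 for KIF17, a homodimeric kinesin-2. Of 13 BBSome genes and regulators, the cargo adaptor that IFT27 helps to leave cilia, 0 passed. They ran from -0.27 for ARL6, the GTPase that recruits the BBSome to membranes, to 0.37 for TTC8, a BBSome subunit. LZTFL1, which links the BBSome to IFT27-dependent export and was chosen after its values were seen, had a log2 fold change of 0.12.

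RAB23 was the exception among the ciliary small GTPases. RAB23 is a known negative regulator of Hedgehog signalling. It had 484 and 514 counts in siNC and 302 and 272 in siLINC01186, or 28.9 and 31.8 CPM against 21.1 and 15.3 CPM. Both siLINC01186 libraries were lower than both siNC libraries. The log2 fold change was -0.74 ± 0.23 (SE, unadjusted p = 0.0102, adjusted p = 1.00 over all genes, edgeR's quasi-likelihood test), inside the fold limit of the study. When the same test was given the replicate number as a block, the adjusted p of RAB23 was 0.000197, and 1.16% of all tested genes had an adjusted p under 0.05 in that fit. None of the 9 partners of IFT27 did, and the lowest adjusted p among them was 0.478, for IFT57. The highest of the small GTPase list, RABL2A at 0.54, did not pass the test without a block (unadjusted p = 0.164, edgeR's quasi-likelihood test). Its reads can be split with its near-identical copy RABL2B. With the block the unadjusted p was 0.0342 for RABL2A and 0.00999 for ARL3 of the same list. Their adjusted p was 0.527 and 0.290, by the same edgeR test.

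Without a block 0 of 22 basal body and transition zone genes passed the limits or the p limit, from -0.30 for CEP97 to 0.30 for RPGRIP1L. Over all tested genes 0.464% passed the limits as higher, 0.292% as lower, and 1.21% passed the p limit. Of 15 tested Hedgehog pathway genes 0 passed without a block and 1, GLI1, with it. GLI2, a transcription factor of the pathway, had 41.1 and 43.4 CPM against 35.0 and 31.7 CPM, without overlap. Its log2 fold change was -0.34 (unadjusted p = 0.0976, edgeR's quasi-likelihood test). GLI1, the classical readout of Hedgehog signalling, chosen after its values were seen, had 10 and 36 counts in siNC and 5 and 14 in siLINC01186. The groups overlapped, but GLI1 was lower within replicate 1, by -0.61, and within replicate 2, by -1.37 on the log2 CPM scale. Its log2 fold change was -1.27 (unadjusted p = 0.116, edgeR's quasi-likelihood test). With the block it was -1.26 (unadjusted p = 0.0160, adjusted p = 0.372, by the same edgeR test), and 0.919% of all tested genes passed the limits in that fit. SMO, the signal transducer of the pathway and also chosen after its values were seen, had 4 and 3 counts against 6 and 9. Its log2 fold change was 1.10 (unadjusted p = 0.203, edgeR's quasi-likelihood test). SHH, chosen likewise, had 5 and 14 counts against 19 and 12 and a log2 fold change of 0.76. Among the list's genes with a mean of at least 1 CPM, KIF7, a ciliary-tip kinesin, was the highest at 0.25.

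Of 6 tested ciliary transcription factors 0 passed, where 0.464% of all tested genes passed as higher and 0.292% as lower. Those with a mean of at least 1 CPM ran from -0.32 for RFX7 to -0.03 for RFX3. FOXJ1, the master factor of motile cilia, had 1 and 1 counts in siNC and 1 and 0 in siLINC01186. Motile cilium genes were few: 7 of 12 passed the filter on low counts and 0 of them passed the limits, with CCDC39 at -0.35 and CCDC40 at 0.20.

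Over all lists without IFT27, 104 of 111 genes were tested. Of these 0 passed the limits in either direction, where 0.464% of all tested genes passed as higher and 0.292% as lower. Without a block only 1, RAB23, had an unadjusted p under 0.05, where 1.21% of all tested genes had. With the replicate number as a block, 1 of the 104, RAB23, had an adjusted p under 0.05, where 1.16% of all tested genes had. Other genes then had an unadjusted p under 0.05 by edgeR's quasi-likelihood test, such as ARL3 (0.00999), GLI2 (0.0118) and IFT22 (0.0256). The share of all tested genes with such a p in that fit was not counted. The median log2 fold change of the 104 genes was 0.08. Of the 104 genes, 21 had both siLINC01186 libraries above both siNC libraries and 12 had both below, which may be read against the 13.6% and 12.4% of all tested genes.

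**Figure D4:**
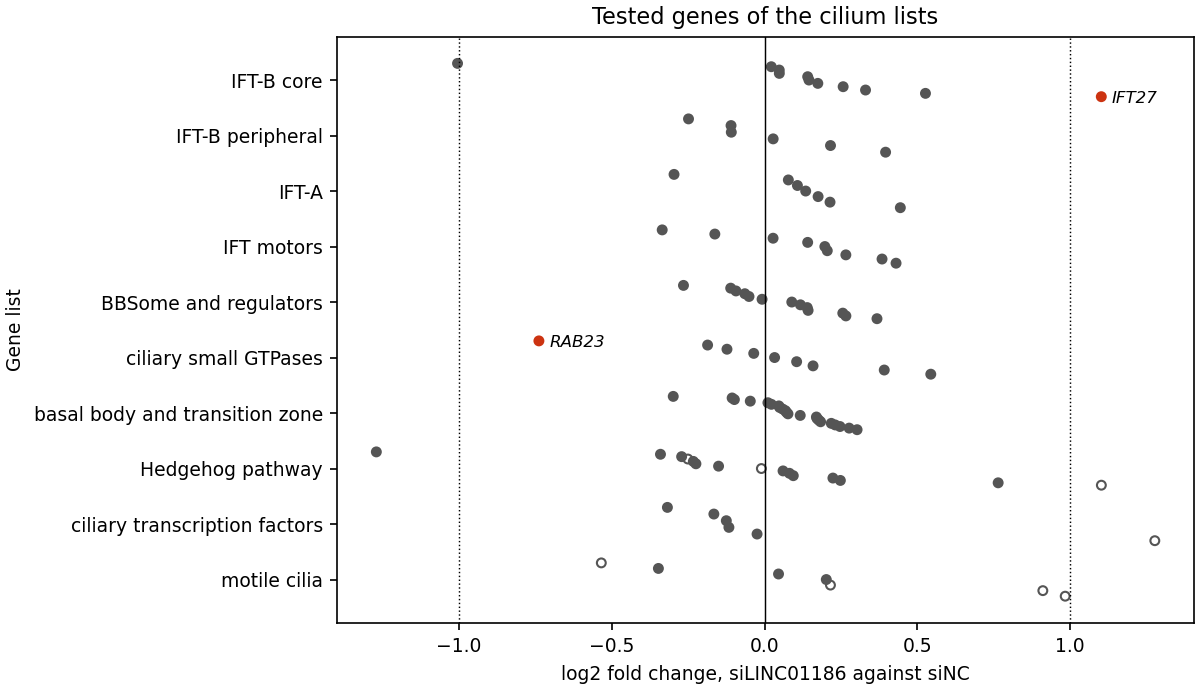
Log2 fold change of each tested gene of the 10 cilium lists, one point per gene and one row per list, with dotted lines at the fold limit of 1, red for an unadjusted p under 0.05 and open circles for genes with under 40 counts summed over the libraries. The red points are RAB23 at -0.74 and IFT27 at 1.10. IFT27 chose the set by this same contrast, so its colour is a description and not a test. Beyond the fold limit but not past the test lie IFT74 at -1.01, GLI1 at -1.27 and a few open circles.

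Genes were ranked by how closely their log2 CPM deviations over the 4 libraries followed those of IFT27, by Euclidean distance among 10180 other genes with a mean of at least 10 CPM. Among the closest were KCNK3, a potassium channel, at 0.219, MMP24, a membrane metalloproteinase, at 0.496, TBC1D9 at 0.529 and DDIT3, a stress-induced transcription factor, at 0.530. Of the 6 members other than IFT27 that reached that mean, IFT57 ranked 35, HSPB11 293, IFT81 1402, IFT52 2355, IFT80 4257 and IFT20 4995. With 4 libraries this likeness describes the order of a few values and nothing more.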

How the data were processed

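RNA-seq libraries of HepG2 transfected with siNC or siLINC01186 were used, with 2 libraries per group named by the labels' replicate numbers. The tables the authors deposited hold raw counts for each gene beside TPM, a length-scaled count with 1 fixed total per library. The submitters' processing notes name hg19, HISAT2, HISAT, TopHat2 and Bowtie2, and the counting program is not given in the sources used here. MIR6087, with a length of 49 nt, took 1.16% and 1.91% of the TPM in siNC and 13.8% and 8.69% in siLINC01186, so TPM was used between genes and CPM between groups.

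Genes with at least 5 counts over the 4 libraries (23942) were normalized by TMM and compared with edgeR 4.0.16 in R 4.3.3 by its quasi-likelihood test, with Benjamini-Hochberg adjustment across the 23942 genes and no block. Log2 CPM used a prior count of 2. Standard errors and 95% intervals came from the fold change and the F statistic. The members and lists were chosen with earlier results of these data known. Named genes were the members, LINC01186, the highest and lowest of each list with a mean of at least 1 CPM, genes past the limits, neighbours of IFT27 within 50 kb and genes overlapping a member, and the 5 genes most like IFT27, of which 1 is not reported here. Depth was 14968958 to 17297245 counts, and 3 counts, taken as the floor, were 0.169 to 0.210 CPM. Floors and depth cover counting error only. Alternatives were DESeq2 1.42.0 (size factors, Wald test), other filters, the replicate number as a block, TPM, another prior count, plain totals and each library left out. The test was checked on simulated data. Tables were made with Python 3.11.15.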

Additional observations from a re-analysis of the deposited data

How the results depend on the processing

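With DESeq2's size factors and with at least 1 count in any library, every count, median and direction given here for the members held. With edgeR's expression filter 32 genes were higher and 14 lower at the limits, and with DESeq2's Wald test 15 and 12. Leaving out each library in turn gave 81 to 282 higher and 93 to 201 lower genes, 0 to 1 members past the limits, a median of the 9 partners of -0.19 to 0.24, and LINC01186 at -0.16 to -0.07. In these fits the library left alone in its group is assumed to vary like the other group. The log2 fold change of IFT27 ranged from 0.71, without siLINC01186 replicate 2, to 1.40. IFT20 ranged from -0.59 to 0.24, IFT52 from -0.44 to 0.36, IFT80 from -0.38 to 0.15 and IFT81 from -0.19 to 0.24, so their directions rested on single libraries. Taken from the deposited TPM, log2 ratios of group means were -0.022 for IFT46, -0.13 for IFT52 and -0.11 for IFT81, opposite in sign to the fit, and 0.95 for IFT27. The larger share of MIR6087 in siLINC01186 lowers every other gene's TPM there.

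The labels share replicate numbers but do not say what a number marks, and with 2 pairs the check cannot settle it. As the study describes different oligos for the repeats, oligo and replicate number cannot be told apart within siLINC01186. Libraries with the same number deviated together (correlation 0.563) across 16848 genes, which are not independent. With the replicate number as a block, 278 genes, 1.16% of those tested, had an adjusted p under 0.05, against 0 without it. IFT27 was then at 1.08, RAB23 at -0.75 with an adjusted p of 0.000197, IFT57 at 0.38 with an unadjusted p of 0.0268 and an adjusted p of 0.478, IFT52 at -0.014, and LINC01186 at -0.11, all by edgeR's quasi-likelihood test. At the limits 1 Hedgehog gene, GLI1, and 1 liver marker, APOB, passed with the block, against 0 in each list without it and 0.919% of all tested genes with it.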
